A study of Homo sapiens with 6 samples.

Results

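The karyopherins and RNA export factors are 36 genes of nucleocytoplasmic transport, taken by symbol from the RNA-seq counts of HCT116 cells, an established human colorectal carcinoma line. They were chosen by name and by role, not by their values, out of 56638 gene symbols counted. Earlier results of these data were known when the list was made. They comprised 17 import receptors, 7 export receptors, 6 genes of the Ran system and 6 genes of mRNA export. The study compared 3 wild type (WT) samples with 3 samples of METTL3-knockout (METTL3-KO) cells, all grown in the same medium with serum and with no other treatment stated. By the study's methods the METTL3-KO cells were a monoclonal line obtained after lentiviral delivery of Cas9 and a guide and selection with puromycin. The effect of the knockout and that of the clone thus cannot be told apart. The files of these samples bear the name SiM3, so their origin rests on the labels and the methods. Nothing in the labels says that the samples of a group came from separate cultures, so the p-values measure the spread between these samples, which may be technical. In bulk RNA, fewer cells of a type and less RNA per cell cannot be told apart either.

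Proteins carrying a nuclear localization signal are bound by an importin alpha (KPNA genes), which links them to importin beta (KPNB1), and other importins and transportins bind their cargo directly. Exportins bind cargo in the nucleus together with the GTP-bound form of the small GTPase Ran, whose gradient is kept up by RCC1 in the nucleus and by RANGAP1 and RANBP1 in the cytoplasm. Most mRNA leaves by a separate route, in which the THO complex and ALYREF load the receptor NXF1-NXT1 onto the transcript. METTL3 is the catalytic subunit of the complex that writes N6-methyladenosine (m6A) on mRNA.

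The samples held 20936091 to 30142144 counts on genes. METTL3 itself stood at 30.6, 30.2 and 29.2 CPM (counts scaled to the sample's total on genes after TMM scaling) in the 3 WT samples and at 7.26, 7.69 and 6.89 CPM in the 3 METTL3-KO samples (adjusted p = 3.27e-07, edgeR, at -2.04 ± 0.0892 SE on the log2 scale). In both groups the sample numbered 3 stood apart from the other 2, and the deviations of its genes followed transcript length, in opposite directions in WT and METTL3-KO (Spearman correlation across genes 0.66 and -0.60, a description). All 8 markers of colon epithelium were measured, with 4 higher in METTL3-KO and 0 lower. Of 5 fibroblast markers 2 had enough counts to be tested: LUM rose from 0.393 ± 0.156 to 2.23 ± 0.302 CPM (SD, n = 3; adjusted p = 0.000112, edgeR), and COL1A1, at 4.69 to 6.05 CPM in WT and 6.24 to 7.87 CPM in METTL3-KO, did not pass, while COL1A2 and PDGFRA were at 0. In the leukocyte list LYZ, a lysozyme gene that made up nearly all of the summed level, fell from 1028 ± 19.2 to 699 ± 30.8 CPM (SD, n = 3; adjusted p = 0.000120, edgeR). Of 4 endothelial markers only VWF had enough counts to be tested, at no more than 0.182 CPM in any sample, while PECAM1 and KDR were at 0. Of 17 proliferation markers 12 were lower in METTL3-KO and 0 higher, their summed level being 2799 to 3063 CPM in WT and 1995 to 2141 CPM in METTL3-KO. The part of any of these markers in the differences below was not tested.

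All 36 members had enough counts to be tested. At an adjusted p under 0.05 in edgeR's quasi-likelihood test, 7 members fell in METTL3-KO cells, where 13.4% of all 22452 tested genes were lower, and 4 rose, where 13.4% of all tested genes were higher. The 7 were the import receptors KPNA2, IPO9 and TNPO2, the export receptors XPO5 and CSE1L, the Ran-binding protein gene RANBP1 and the THO subunit gene THOC1. The 4 were the import receptors KPNA1, KPNA5, KPNA6 and TNPO3. Together they made 30.6% of the members against 26.8% of all tested genes. A test restricted to 10071 well expressed genes (mean log2 CPM above 3, length and GC content known), which include 35 members, gave the same counts of 7 and 4, or 31.4% of these members, beside 22.4% of those genes lower, 22.1% higher and 44.5% either way. The members' share was thus a little above that of all tested genes and below that of the expressed genes. The values below describe which members moved, not that the list as a whole did. The median log2 fold change was -0.09 over the members and -0.02 over all tested genes.

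**Figure D1:**
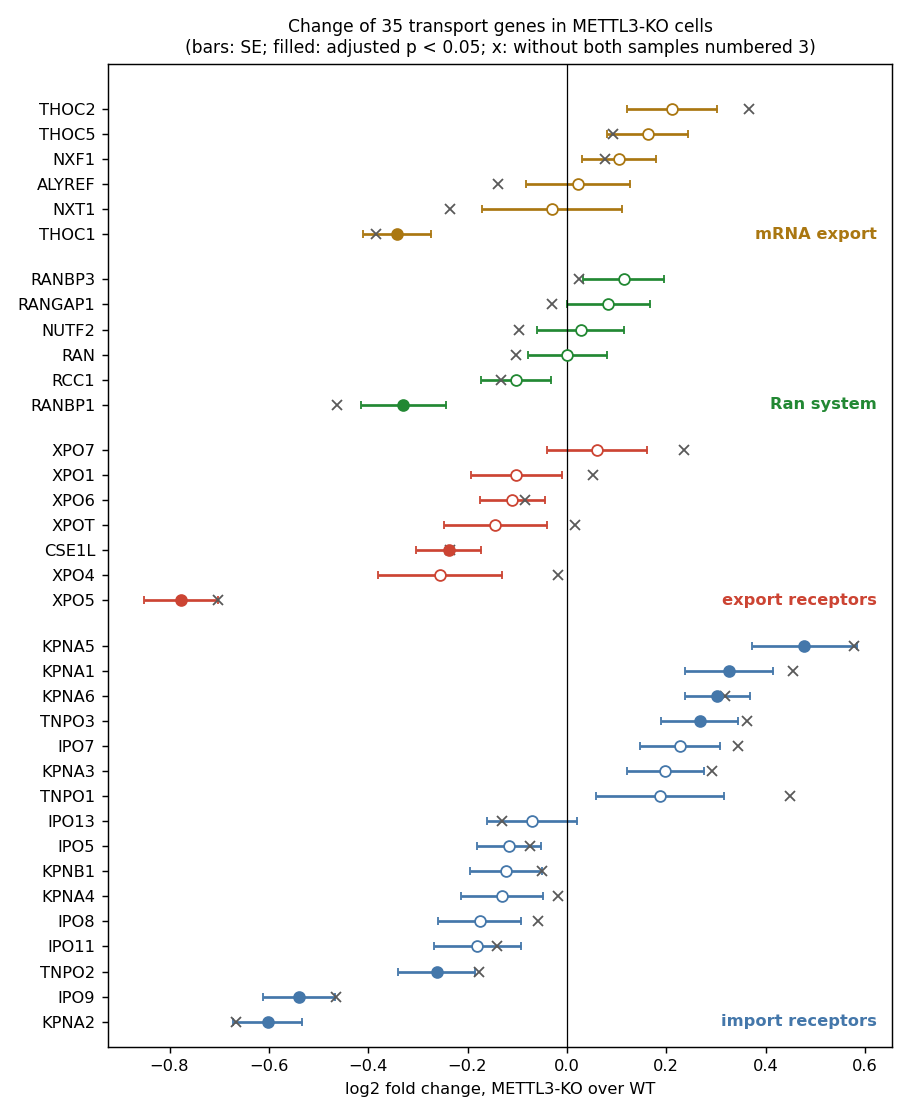
Log2 fold change of METTL3-KO over WT for 35 members by role, with bars of 1 SE, filled points for an adjusted p under 0.05, and crosses for the fit without both samples numbered 3. IPO4, at 1 to 7 counts a sample, is not drawn. XPO5 lies farthest to the left at -0.78, and KPNA5 farthest to the right at 0.48.

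The importin alpha genes moved in opposite directions, KPNA2 down and KPNA1, KPNA5 and KPNA6 up. KPNA2 encodes importin alpha-1, an adaptor known to be abundant in dividing cells, and lies on chromosome 17 (66031752 to 66043480, plus strand, GRCh37). It was measured at 409, 404 and 366 CPM in the 3 WT samples and at 259, 254 and 264 CPM in the 3 METTL3-KO samples. The groups were far apart, and the lowest WT value was that of the sample numbered 3. On the log2 scale KPNA2 fell by 0.60 ± 0.0691 SE (adjusted p = 0.000101, edgeR), a change of -34.1% in the mean CPM, and was called in all 6 fits that left out 1 sample. KPNA6, which encodes importin alpha-7, stood at 76.4, 74.4 and 78.3 CPM in WT and at 94.4, 94.1 and 94.3 CPM in METTL3-KO. The groups were apart and the METTL3-KO samples nearly equal, and KPNA6 rose by 0.30 ± 0.0661 SE (adjusted p = 0.00560, edgeR).

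KPNA5, the importin alpha-6 gene, was the scarcest of the 6 per kilobase, at 8.52, 7.79 and 9.47 CPM in WT and 12.1, 12.4 and 11.4 CPM in METTL3-KO. It rose by 0.48 ± 0.106 SE (adjusted p = 0.00615, edgeR), with no overlap between groups. KPNA1, the importin alpha-5 gene, stood at 51.2, 54.9 and 62.0 CPM in WT and at 74.0, 71.2 and 65.3 CPM in METTL3-KO. The 2 samples numbered 3 were the closest to each other, and KPNA1 rose by 0.33 ± 0.0884 SE (adjusted p = 0.0180, edgeR). Other annotated genes share 16.2% of the exon bases of KPNA1 and 8.88% of those of KPNA6. KPNA1 passed the threshold in 2 of the 6 fits that left out 1 sample, while KPNA5 and KPNA6 passed it in all 6. KPNA3 (0.20, adjusted p = 0.0824) and KPNA4 (-0.13, adjusted p = 0.274), the remaining pair, did not pass edgeR's test.

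The make-up of the importin alpha transcripts can be read on a scale of CPM per kilobase of the canonical transcript. On that scale KPNA2 made up 82.3%, 82.0% and 79.0% of the sum of the 6 genes in WT and 70.6%, 70.6% and 72.9% in METTL3-KO. The mean share was 81.1% ± 1.83 (SD, n = 3) in WT and 71.4% ± 1.32 (SD, n = 3) in METTL3-KO, and the groups did not overlap. KPNA1, KPNA5 and KPNA6, which are closely related in sequence, together took 7.89% ± 0.739 in WT and 13.1% ± 0.344 in METTL3-KO (SD, n = 3). KPNA3 and KPNA4 took 11% ± 1.09 and 15.5% ± 0.973. A share also rises when KPNA2 falls. The mean share of KPNA4 went from 4.05% to 4.91%, while its mean level went from 9.89 to 9.02 CPM per kilobase. The sum of all 6 was 245 ± 9.16 CPM per kilobase in WT and 184 ± 1.94 in METTL3-KO (SD, n = 3), also without overlap. These shares depend on the transcript taken as the length, which is 1977 nt for KPNA2 and 4222 to 11288 nt for the others. As shares of counts with no length division, KPNA2 made up 56.6% in WT and 43.3% in METTL3-KO.

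Among the receptors that bind cargo directly, IPO9 and TNPO2 fell and TNPO3 rose. IPO9 (chromosome 1, 201798277 to 201853419, plus strand), an importin of core histones, was at 139, 144 and 154 CPM in WT and at 105, 99.3 and 95.5 CPM in METTL3-KO. All 3 METTL3-KO samples lay well below the WT samples. IPO9 fell by 0.54 ± 0.0730 SE (adjusted p = 0.000290, edgeR), past the threshold in all 6 fits that left out 1 sample. TNPO3, the transportin of serine- and arginine-rich splicing factors, was at 146, 142 and 165 CPM in WT and at 189, 182 and 175 CPM in METTL3-KO. The nearest samples of the groups were again those numbered 3, and TNPO3 rose by 0.27 ± 0.0771 SE (adjusted p = 0.0241, edgeR), a call kept in 2 of 6 fits without 1 sample. TNPO2, a close relative of transportin 1, fell by 0.26 ± 0.0774 SE (adjusted p = 0.0269, edgeR), kept in 3 of the 6.

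The other import receptors did not pass the test. KPNB1, the beta subunit that carries the importin alpha proteins, had a log2 fold change of -0.12 (adjusted p = 0.239, edgeR) and overlapping groups. IPO5 (-0.12), IPO8 (-0.18), IPO11 (-0.18) and IPO13 (-0.07) did not pass either, and IPO13 differs from the rest in that it also exports cargo. For IPO11, 21.5% of the exon bases are shared with other annotated genes on the same strand. IPO7, with an adjusted p of 0.0568 (edgeR), lay nearest to the threshold at a log2 fold change of 0.23. TNPO1, transportin 1, was at 111, 109 and 153 CPM in WT and at 155, 145 and 124 CPM in METTL3-KO. Its groups overlapped only through WT sample 3. The log2 fold change was 0.19 (adjusted p = 0.317, edgeR) over all samples and 0.37 (adjusted p = 0.00303, edgeR) without WT sample 3. Without both samples numbered 3 it was 0.45 (adjusted p = 2.45e-09, edgeR). That last fit has 2 samples per group, the closest pair of each group, so its small p rests on a narrow spread. IPO4 had 7, 7 and 5 counts in WT and 5, 2 and 1 in METTL3-KO, too few to read, and 69.5% of its exon bases are shared with other annotated genes, where union counting can set reads aside as ambiguous.

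Of the 7 export receptors 2 fell and 0 rose, beside 13.4% of all tested genes in each direction (22.4% and 22.1% of the well expressed genes). Their median log2 fold change was -0.14, and -0.02 without both samples numbered 3. XPO5, the exportin of pre-miRNA hairpins, showed the smallest p of all members. The gene lies on chromosome 6 (43490072 to 43543775, minus strand, GRCh37) and stood at 109.7, 110.5 and 121 CPM in WT and at 70.1, 65.2 and 63.9 CPM in METTL3-KO. No METTL3-KO sample came near a WT sample. Of the exon bases of XPO5, 4.1% are shared with POLR1C on the opposite strand. XPO5 fell by 0.78 ± 0.0748 SE (adjusted p = 3.20e-05, edgeR), a change of -41.7% in mean CPM, and the 6 fits without 1 sample gave -0.82 to -0.73. CSE1L, the exportin that returns importin alpha to the cytoplasm, was at 291, 275 and 293 CPM in WT and at 246, 235 and 246 CPM in METTL3-KO. The groups did not overlap, and CSE1L fell by 0.24 ± 0.0653 SE (adjusted p = 0.0191, edgeR), a call kept in 3 of the 6 fits without 1 sample.

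XPO4 was at 79.1, 78.2 and 111 CPM in WT and at 77.7, 78.0 and 68.5 CPM in METTL3-KO. The 4 samples numbered 1 and 2 lay close together, and the difference of -0.26 (adjusted p = 0.159, edgeR) was -0.02 without the samples numbered 3. XPO6, an exportin of actin and profilin, stood at 141, 144 and 148 CPM in WT and at 138, 131 and 132 CPM in METTL3-KO. Its groups did not overlap, but the log2 fold change of -0.11 (adjusted p = 0.249, edgeR) did not pass the test. XPO1, the general exportin of leucine-rich export signals, had a log2 fold change of -0.10 (adjusted p = 0.448, edgeR), XPOT, the tRNA exportin, -0.14 (adjusted p = 0.337, edgeR), and XPO7 0.06 (adjusted p = 0.694, edgeR). All 3 had overlapping groups.

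**Figure D2:**
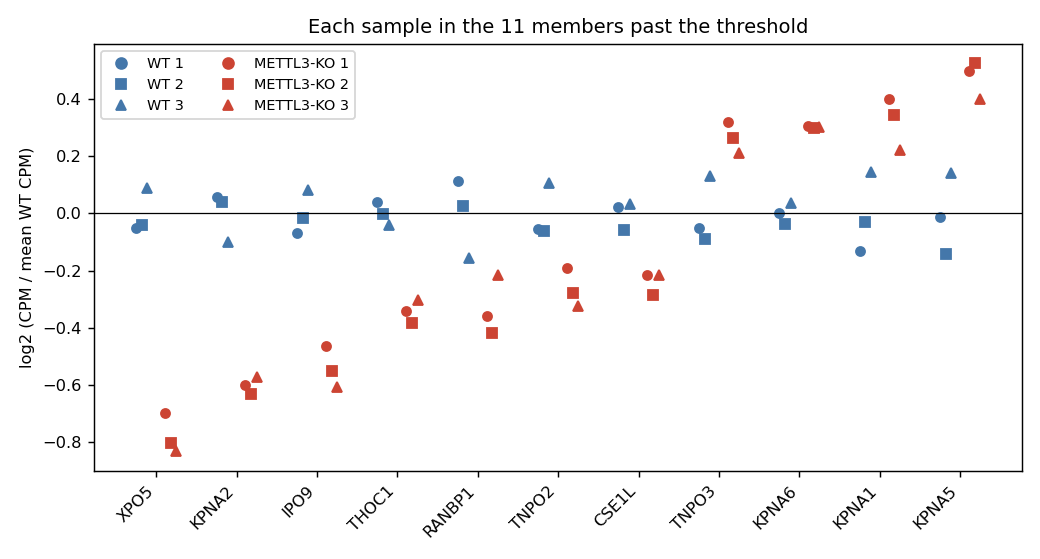
CPM of each sample relative to the WT mean (log2 scale, vertical axis) for the 11 members with an adjusted p under 0.05, WT in blue and METTL3-KO in red, with the sample number as the marker shape. In each of the 11 genes the 3 METTL3-KO samples lie on 1 side of the 3 WT samples.

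Import and export receptors were set against each other by the mean log2(CPM + 1) over their members in each sample. The import receptors were at 6.24, 6.24 and 6.38 in WT and at 6.32, 6.25 and 6.21 in METTL3-KO, so the groups overlapped and the mean difference was -0.03. The export receptors were at 7.21, 7.20 and 7.45 in WT and at 7.13, 7.08 and 7.002 in METTL3-KO, with no overlap and a mean difference of -0.22. Without the samples numbered 3 these differences were 0.05 and -0.10.

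Import minus export was -1.0001 ± 0.0581 in WT and -0.81 ± 0.0182 in METTL3-KO (SD, n = 3), a difference of 0.19 with no overlap between the groups. Over all samples the mean of the export receptors differed by -0.22 and that of the import receptors by -0.03. Without both samples numbered 3 import minus export differed by 0.15. There the export mean differed by -0.10 and the import mean by 0.05, so both classes had a part. The level of this quantity depends on which genes are averaged and on their lengths, and no test was made of it. With XPO5 left out of the export receptors, a choice made after its value was seen, the difference was 0.10. From the summed CPM of each class it was 0.14. XPO5 and the samples numbered 3 were not left out together. Without those samples XPO5 had a log2 fold change of -0.70, while the median over the 7 export receptors was -0.02. The difference is thus not to be read as a shift of the export receptors as a class.

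In the Ran system 1 of 6 genes fell and 0 rose. Of all tested genes 13.4% did so in each direction (22.4% and 22.1% of the well expressed genes). The median log2 fold change over the 6 genes was 0.01, and -0.10 without both samples numbered 3. RANBP1, which binds Ran-GTP and assists its hydrolysis in the cytoplasm, stood at 297, 279 and 246 CPM in WT and at 213, 205 and 236 CPM in METTL3-KO. The groups were apart, and the samples numbered 3 lay closest to each other. RANBP1 fell by 0.33 ± 0.0858 SE (adjusted p = 0.0149, edgeR), and by 0.46 without those samples, and was called in 2 of the 6 fits that left out 1 sample. Its exons share 11.2% of their bases with other genes, TRMT2A on the opposite strand and a small nucleolar RNA. RAN itself was at 436, 441 and 374 CPM in WT and at 420.4, 397 and 435 CPM in METTL3-KO, with overlapping groups and a difference of 0.00 ± 0.0792 SE on the log2 scale (adjusted p = 0.993, edgeR). The counting sets aside reads that align to several places, and the pseudogene RANP1 held up to 2745 counts of its own, so the level of RAN is uncertain.

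RCC1, the nuclear exchange factor of Ran, was at 155, 160.0 and 143 CPM in WT and at 147, 140.0 and 139 CPM in METTL3-KO (-0.10, adjusted p = 0.321, edgeR). The groups overlapped through WT sample 3. RANGAP1, the GTPase-activating protein, was at 131, 123 and 109.8 CPM in WT and at 129, 120.2 and 137 CPM in METTL3-KO (0.08, adjusted p = 0.5, edgeR). RANBP3, a cofactor of XPO1, was at 48.4, 50 and 43.6 CPM in WT and at 51.6, 48.3 and 53.9 CPM in METTL3-KO (0.11, adjusted p = 0.332, edgeR). Both overlapped between groups, as did NUTF2, the carrier that brings Ran back into the nucleus (0.03, adjusted p = 0.843, edgeR).

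Of the 6 mRNA export members 1 fell and 0 rose. Of all tested genes 13.4% did so in each direction (22.4% and 22.1% of the well expressed genes). The median log2 fold change over the 6 members was 0.06, and -0.03 without both samples numbered 3. THOC1, a core subunit of the THO complex on chromosome 18 (214520 to 268050, minus strand, GRCh37), was at 81.4, 79.2 and 77.0 CPM in WT and at 62.4, 60.7 and 64.2 CPM in METTL3-KO. The groups were far apart relative to their spread. THOC1 fell by 0.34 ± 0.0687 SE (adjusted p = 0.00343, edgeR), a change of -21.1% in mean CPM, and was called in all 6 fits without 1 sample. THOC2, the largest THO subunit, was at 236, 233 and 283 CPM in WT and at 306, 299 and 266 CPM in METTL3-KO (0.21, adjusted p = 0.109, edgeR). The 2 samples numbered 3 crossed, and without them, at 2 samples per group, the value was 0.37 (adjusted p = 5.54e-09, edgeR).

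THOC5 stood at 68.9, 67.2 and 62.8 CPM in WT and at 77.6, 67.2 and 77.7 CPM in METTL3-KO (0.16, adjusted p = 0.167, edgeR). NXF1, the main mRNA export receptor, was at 77.8, 80.2 and 73.4 CPM in WT and at 87.6, 78.7 and 82.6 CPM in METTL3-KO (0.11, adjusted p = 0.328, edgeR). Both overlapped between groups. NXT1, the partner of NXF1 (-0.03, adjusted p = 0.898, edgeR), and the adaptor ALYREF (0.02, adjusted p = 0.898, edgeR) were close to 0 as well.

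Counted by separation alone, 12 of 36 members had all METTL3-KO samples below all WT samples, where 20.7% of all tested genes did. In 6 they lay above, where 20.2% did (40.9% either way). The share among the well expressed genes, which include 35 members, was not computed, so no excess is read from these counts. The 18 members without overlap included all 11 past the threshold. The 7 others were KPNA3, IPO4, IPO5, IPO7, IPO11, XPO4 and XPO6.

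The weight of the samples numbered 3 followed transcript length among the members. Leaving both out moved the log2 fold change of each of the 12 members with a longest transcript of 6000 nt or more upward, by a median of 0.11, and that of each of the 7 under 3000 nt downward, by a median of -0.12. Across 35 members (IPO4 left out) the shift and the length had a Spearman correlation of 0.80, given as a description, since the members share these libraries. The fit without both samples numbered 3 has 2 samples per group. These pairs differed less (chi-square per gene 2.58 in WT and 2.34 in METTL3-KO) than any pair with a sample numbered 3 (8.32 to 23.1). Its small p-values thus rest on a narrow spread. In that fit 10 members were lower, where 22.6% of tested genes were, and 9 were higher, where 21.5% were (52.8% of members and 44.2% of genes either way). The 11 genes above passed there in the same direction. KPNA3, IPO7, TNPO1, XPO7 and THOC2 were called higher in addition, and RAN (-0.10), RCC1 (-0.13) and NXT1 (-0.23) lower. After a correction of the well expressed genes for length and GC content, made sample by sample, 14 of 35 members were lower, beside 29% of these genes, and 8 higher, beside 29%. That is 62.9% of the members and 58% of the genes, and the 11 genes again kept their calls.

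**Figure D3:**
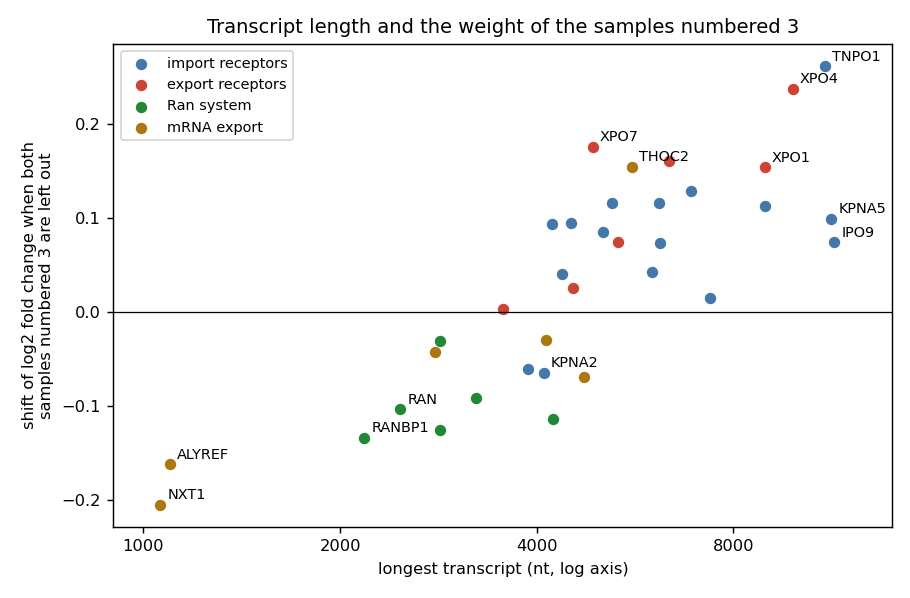
Shift of the log2 fold change when both samples numbered 3 are left out (vertical axis) against the longest transcript of the gene (nt, log axis) for 35 members, coloured by role. All 12 members of 6000 nt or more lie above 0 and all 7 under 3000 nt lie below 0.

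By level per kilobase in WT cells, the order was led by RANBP1 (224 ± 21.1 CPM per kilobase, SD, n = 3) and KPNA2 (199 ± 11.8), whose samples overlapped, followed by RAN (169 ± 15.0). CSE1L (80.5 ± 2.79) and IPO7 (78.7 ± 7.76) came next and overlapped each other, then XPO1 (60.2 ± 6.91). At the lower end stood IPO11 (6.21 ± 0.459), KPNA5 (0.761 ± 0.0749) and IPO4 (0.0761 ± 0.0111), each apart from its neighbours. In METTL3-KO cells KPNA2 was at 131 ± 2.63 CPM per kilobase (SD, n = 3), below RANBP1 (179 ± 13.1) and RAN (169 ± 7.66). This order depends on the transcript taken as the length, here the canonical one. It is 1221 nt for RANBP1, 1977 nt for KPNA2 and 2474 nt for RAN. The longest transcripts are 2177, 4097 and 2474 nt, so the order of these 3 genes is not settled in either group.

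Promoters of 4 members are shown because they span the changes above, KPNA2, CSE1L and XPO5 having fallen and KPNA6 having risen; they were picked after these values were seen. Each run is 250 bases before to 50 bases after the RefSeq start site, written 5′ to 3′ along the gene's strand (GRCh38.p14), and capitals mark 2 words, TTTGAA (the core of the cell-cycle homology region, CHR) and CCAAT, on either strand (TTCAAA and ATTGG). The windows are chr17:68035485-68035784 (plus strand) for KPNA2, chr20:49046062-49046361 (plus) for CSE1L, chr6:43575989-43576288 (minus) for XPO5 and chr1:32107806-32108105 (plus) for KPNA6.
KPNA2 promoter: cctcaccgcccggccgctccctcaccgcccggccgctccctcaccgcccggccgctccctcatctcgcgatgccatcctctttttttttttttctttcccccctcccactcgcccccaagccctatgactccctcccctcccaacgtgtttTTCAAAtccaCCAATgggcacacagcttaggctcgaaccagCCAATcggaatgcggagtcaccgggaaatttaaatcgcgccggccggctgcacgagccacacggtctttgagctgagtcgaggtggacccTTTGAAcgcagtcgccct
CSE1L promoter: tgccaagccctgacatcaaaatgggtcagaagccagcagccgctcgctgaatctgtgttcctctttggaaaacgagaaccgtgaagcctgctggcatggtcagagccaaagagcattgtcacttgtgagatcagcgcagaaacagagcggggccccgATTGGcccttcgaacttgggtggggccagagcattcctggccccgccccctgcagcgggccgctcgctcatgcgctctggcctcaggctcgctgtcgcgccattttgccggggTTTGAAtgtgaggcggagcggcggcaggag
XPO5 promoter: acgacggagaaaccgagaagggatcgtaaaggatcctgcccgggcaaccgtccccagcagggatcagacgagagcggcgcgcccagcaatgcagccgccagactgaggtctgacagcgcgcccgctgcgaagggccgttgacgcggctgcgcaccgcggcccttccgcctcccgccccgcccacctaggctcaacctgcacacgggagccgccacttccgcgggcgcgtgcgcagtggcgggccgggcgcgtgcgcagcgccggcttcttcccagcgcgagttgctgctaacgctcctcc
KPNA6 promoter: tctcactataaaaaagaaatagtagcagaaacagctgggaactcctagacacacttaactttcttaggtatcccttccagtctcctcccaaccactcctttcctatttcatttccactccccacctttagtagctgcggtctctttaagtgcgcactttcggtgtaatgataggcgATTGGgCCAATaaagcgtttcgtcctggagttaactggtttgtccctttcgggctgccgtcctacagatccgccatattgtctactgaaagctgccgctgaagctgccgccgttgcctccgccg
The KPNA2 window holds 2 of each word, the CSE1L window 1 of each, the KPNA6 window 2 CCAAT words in opposite orientation, and the XPO5 window neither. RefSeq windows were at hand for 31 of the 36 members. TTTGAA occurred in 5 of the 31 and in 15.4% of all 27305 windows, and CCAAT in 12 of the 31 and in 35.7% of all windows. KPNA2 and CSE1L were the 2 members with both, as were 6.08% of all windows. The E-box CACGTG was found in 5 members and 7.43% of all windows, and the ETS word CCGGAAG in 8 members and 10.7% of all windows. These are matches of letters and say nothing of binding.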

How the data were processed

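RNA-seq counts of 3 WT and 3 METTL3-KO samples of HCT116 cells were analysed. None was left out of the main comparison. Per the study's methods and the submitters' processing notes, the authors aligned read pairs with TopHat2 2.0.11 to hg19 (GRCh37) and ran htseq-count, union mode, on the alignments. The authors deposited 56638 gene symbols with whole-number counts, not normalized. Whether the counting used strand is not given in the sources used here, so overlapping genes on opposite strands may share reads or lose them. Reads assigned to no feature (6.97% to 10.5%) or to more than 1 gene (9.22% to 10.3%) were kept out of library sizes. The WT files bear other numbers than the labels (NC 1, 3 and 4), and the METTL3-KO files bear the name SiM3. The groups and numbers of the labels were used, and the file names leave the origin of the METTL3-KO samples less certain.

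Genes with a total under 5 counts in WT and under 5 in METTL3-KO were removed, leaving 22452. WT and METTL3-KO were compared in edgeR 4.0.16 (R 4.3.3) by quasi-likelihood F test with TMM scaling, two-sided, adjusted by Benjamini-Hochberg over all tested genes, with a threshold of 0.05. CPM values use TMM-scaled library sizes. The alternatives were DESeq2 1.42.0, RLE scaling, other filters on low counts, a block for the replicate number, and leaving out samples. A spline correction (5 degrees of freedom) for transcript length and GC content among 10071 genes with a mean log2 CPM over 3, the same genes uncorrected, and leaving out IPO4 or XPO5 were chosen after seeing the data. Positions, lengths and exon overlaps came from a GENCODE annotation on GRCh37, the build of the counts, and promoter sequences from RefSeq (GRCh38.p14). Older symbols were matched through RefSeq synonyms.

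The members, roles, other lists and alternatives were chosen with earlier results of these data known. Values in every sample are given for the 4 members of each role with the smallest p and for each member that rose; of the other transport genes the 3 with the smallest p per list are named. TNPO1, RAN and IPO4 were described by sample after their values were seen. All 6 pairs of samples within a group differed by more than sampling noise (chi-square per gene 2.34 to 23.1), so none was treated as a repeat.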

Additional observations from a re-analysis of the deposited data

How the results depend on the processing

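All 11 members past the threshold kept their direction in every fit run, and all 11 passed with DESeq2, without both samples numbered 3 (2 samples per group), and with the length and GC correction. KPNA2, KPNA5, KPNA6, IPO9, XPO5 and THOC1 passed in all 6 fits without 1 sample. Members lower numbered 4 to 7 over those 6 fits, the 4 coming without METTL3-KO sample 1 or 2, and 14 with the length and GC correction (background 29%). Members higher numbered 2 to 8 over those fits, 2 without WT sample 1, WT sample 2, METTL3-KO sample 1 or METTL3-KO sample 2 and 8 without WT sample 3; they numbered 9 without both samples numbered 3, 8 with the correction and 7 with the correction and block. Over all tested genes, the lower count was 3007, with 1975 to 3820 in the fits without 1 sample (2000 without METTL3-KO sample 1, 1975 without METTL3-KO sample 2). The higher count was 3012, with 2213 to 3807 in those fits (3807 without WT sample 3). Without both samples numbered 3 the counts were 4810 and 4573. With the correction and block, 2332 of the 10071 well expressed genes were lower and 2353 higher. With a block for the replicate number alone, the counts over all tested genes were 1582 and 1694, with 4 members lower (KPNA2, IPO9, XPO5, THOC1) and 0 higher. The same-numbered samples deviated in opposite directions (correlations -0.586, -0.390 and -0.784), so the number gives no pairing, and the losses under the block are not read as weaker effects. The import minus export difference of 0.19 was 0.14 on summed CPM, 0.10 without XPO5 and 0.15 without both samples numbered 3, and 0.16 to 0.21 without 1 sample. Among members that did not pass, the sign turned without both samples numbered 3 for XPO1 (0.053), XPOT (0.017), RAN (-0.10), RANGAP1 (-0.030), NUTF2 (-0.097) and ALYREF (-0.14). It turned for RAN among expressed genes alone (-6.25e-05), and for NXT1 with the length and GC correction (0.0037, with the block 0.0046). Over the fits without 1 sample, it also turned for XPO1 (-0.15 to 0.00072), XPOT (-0.21 to 0.0046), RAN (-0.068 to 0.053), NUTF2 (-0.046 to 0.091), NXT1 (-0.16 to 0.095) and ALYREF (-0.062 to 0.11). The causes were not tested. The correction over all tested genes was not run, since 77.0% of them had both a length and a GC content. It was run on expressed genes, of which 97.0% had both. The filters and the block give no separate value of the import minus export difference, which is a description and not a fit. IPO4, at 1 to 7 counts a sample, was too shallow to read.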

Other observations

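Genes of the same routes outside the members also moved both ways. Of 23 other mRNA export genes 7 fell and 4 rose, where 13.4% of all tested genes were lower and 13.4% higher (22.4% and 22.1% of the well expressed genes), with a median log2 fold change of -0.13. DDX39B, the helicase that loads export factors with the THO complex, fell from 175 ± 8.51 to 101 ± 3.89 CPM (SD, n = 3; log2 fold change -0.79, SE 0.0705, adjusted p = 1.92e-05, edgeR). Of the RBM15 pair, RNA-binding proteins that also belong to the m6A writer complex, RBM15B fell by 0.47 (SE 0.0717, adjusted p = 0.000660, edgeR) and RBM15 rose by 0.94 (SE 0.156, adjusted p = 0.00109, edgeR). DDX39B, RBM15 and RBM15B passed in all fits without 1 sample, with the replicate block and without both samples numbered 3.

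Of 17 other Ran-binding and cargo adaptor genes 15 could be tested, of which 2 fell and 2 rose, with a median of -0.06. The shares beside them are the same 13.4% of all tested genes in each direction (22.4% and 22.1% of the well expressed genes). KPNA7, the importin alpha of eggs and early embryos, was scarce and rose from 0.633 ± 0.0658 to 2.94 ± 0.729 CPM (SD, n = 3; log2 fold change 2.21, SE 0.260, adjusted p = 0.000118, edgeR). RCC2 fell by 0.29 (SE 0.0678, adjusted p = 0.00784, edgeR). The pseudogene IPO8P1, at 9 to 44 counts a sample, rose by 1.11 (SE 0.315, adjusted p = 0.0224, edgeR), and its reads may be shared with IPO8, which did not pass the test.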
